A study of Mus musculus with 17 samples.

Results

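Podocytes are the epithelial cells that cover the glomerular capillaries of the kidney, and their foot processes are joined by the slit diaphragm, the last barrier of the blood filter. The slit diaphragm is built around nephrin, which adaptor and scaffold proteins tie to the actin cytoskeleton of the foot process, while a charged glycocalyx covers the apical face of the cell. Loss of any of several of these proteins causes inherited nephrotic syndrome, and their transcripts are widely used as podocyte markers in whole kidney RNA. Several of the genes are not restricted to podocytes. Podxl is also made by endothelium, Wt1 by parietal epithelium and mesothelium, Synpo by contractile cells and neurons, and Cd2ap by many epithelia.

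The transcripts of 8 podocyte genes were followed in 17 RNA libraries of mouse kidney. The genes were listed by name as podocyte genes, with earlier results of these data known, and matched by Ensembl identifier among the 53313 identifiers common to all libraries. They are Nphs1 (nephrin, the adhesion protein of the slit diaphragm), Podxl (podocalyxin, the sialomucin of the apical surface), Synpo (synaptopodin, an actin-associated protein of the foot process), Ptpro (a receptor tyrosine phosphatase of the apical foot process membrane), Magi2 (a membrane-associated scaffold that binds nephrin), Cd2ap (an adaptor between nephrin and actin), Plce1 (phospholipase C epsilon, a signalling enzyme) and Wt1 (a zinc finger transcription factor needed for podocyte differentiation). All 8 were present in every count table.

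The libraries came from wild type mice labelled C57BL/6Rj, a strain that the authors' methods write as C57BL/6JRj. Primary tubular epithelial cells (PTEC), labelled as proximal tubular cells, were grown from collagenase-digested kidneys whose tubular fragments had been sedimented and sieved, steps that do not remove every other cell of the kidney. The 4 non-senescent cultures were unirradiated and taken at day 6, and the 4 senescent cultures were taken at day 16 after 10 Gy of γ-irradiation, so that irradiation and time in culture cannot be told apart. Part of the right kidney of male mice aged 3, 12 and 24 months was sequenced without treatment, with 3 mice per age. The deposited values are raw read counts per gene. The total per library was 26963442 to 32838856 counts in non-senescent PTEC, 29041073 to 35409144 in senescent PTEC, and 37311247 to 49471409, 54097073 to 59718029 and 62761670 to 66894790 in kidneys at 3, 12 and 24 months. Levels are given as CPM, counts brought to a common library size with TMM scaling, within the PTEC or within the kidneys. A gene was called, and is said to have risen or fallen, when edgeR's quasi-likelihood test put its adjusted p below 0.05 and its log2 fold change beyond 0.5 in either direction.

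The label was first checked against the data. In whole kidney all 8 genes were detected in every library, with at least 92 counts for the lowest value of Wt1. Nphs1 and Ptpro were close to the detection floor of 3 counts in non-senescent PTEC, while Cd2ap, Wt1, Podxl, Synpo, Plce1 and Magi2 were measured well above it. In the cultured cells the list therefore describes 8 genes rather than podocytes. In bulk RNA, fewer cells of a type and less RNA per cell cannot be told apart.

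The first comparison asked how these genes differed between senescent and non-senescent PTEC. Synpo and Magi2 were up-regulated in senescent PTEC. Nphs1 was called up as well, but it passed the filter on low counts only through the senescent cultures, where it is high. Its call is therefore no test of a difference. None of the 7 genes tested was down-regulated. These 3 calls stand against 39.8% of the 15434 genes tested that were called in either direction, 20.1% up and 19.7% down. The same 3 genes had groups that did not overlap, with the senescent cultures higher, which was true of 22.1% of all genes (42% in either direction). No test set the 8 genes apart from other genes.

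Per exon length Synpo had the largest rise in level. It stood at 62.7, 76.0, 37.0 and 61.5 CPM in the non-senescent cultures with replicate numbers 1 to 4, and at 298, 323, 151 and 254 CPM in the senescent cultures. Every senescent culture was above every non-senescent culture. The mean rose from 59.3 ± 16.3 to 257 ± 75.7 CPM (SD, n = 4 each), 4.33-fold by the fit (log2 fold change 2.11, SE 0.28, adjusted p = 0.000328). Among the senescent cultures replicate 3 was the lowest, and it was the lowest among the non-senescent cultures too. The rise was called with each culture left out in turn, with log2 fold changes from 1.95 to 2.31.

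Magi2, the nephrin-binding scaffold, was lower in level per exon length. The non-senescent cultures had 1.81, 2.27, 2.51 and 4.80 CPM and the senescent cultures 8.69, 9.61, 5.59 and 8.12 CPM, again without overlap. Magi2 rose 2.81-fold (log2 fold change 1.49, SE 0.32, adjusted p = 0.00482). The smallest distance between the groups lay between non-senescent replicate 4 and senescent replicate 3.

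The RefSeq table of promoters holds 5 of the 8 genes, and only those of Ptpro and Magi2 lie almost wholly outside annotated exons. Both Magi2 windows are shown because Magi2 is the gene called in PTEC for which windows almost wholly outside exons were read. Another reason is that WT1 and LMX1B, factors of podocyte development, are themselves measured here. The windows cover the 250 bases before each start on the plus strand of GRCm38.p6, chr5:19226796-19227045 for the upstream start and chr5:19907268-19907517 for the downstream start. Both strands were searched for a WT1-like motif (GCGNGGGNG), an LMX1B-like motif (TAATTA) and a FOXC-like motif (GTAAACA), which do not overlap one another in these windows. Capitals mark the match, which is the reverse complement of the WT1-like motif in the upstream window and the LMX1B-like motif in the downstream window.
Magi2 upstream: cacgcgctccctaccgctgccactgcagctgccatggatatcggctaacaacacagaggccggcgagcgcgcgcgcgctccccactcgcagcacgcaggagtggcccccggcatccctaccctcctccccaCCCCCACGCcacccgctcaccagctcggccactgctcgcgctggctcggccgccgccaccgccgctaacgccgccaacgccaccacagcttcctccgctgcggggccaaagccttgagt
Magi2 downstream: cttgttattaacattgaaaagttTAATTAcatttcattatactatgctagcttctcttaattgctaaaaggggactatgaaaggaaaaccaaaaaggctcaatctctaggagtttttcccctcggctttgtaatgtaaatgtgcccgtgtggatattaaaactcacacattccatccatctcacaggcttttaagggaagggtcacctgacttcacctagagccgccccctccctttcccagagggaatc
The WT1-like letters begin 119 bases before the upstream start and the LMX1B-like letters 227 bases before the downstream start. Among all 32851 promoters of the same length, 10.5% hold the WT1-like motif, 4.84% the LMX1B-like motif and 3.17% the FOXC-like motif. The window of Cd2ap, which was not called in PTEC, also holds a WT1-like match, 38 bases before its start. The windows of Ptpro, Nphs1 and Plce1 hold none of the 3 motifs, which says only that these letters are not in those windows. The counts do not show which start was used.

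Nphs1 was at the limit of detection. The non-senescent cultures held 2, 0, 0 and 9 reads of nephrin, and the senescent cultures 45, 47, 21 and 15. No senescent culture was as low as the highest non-senescent one. The mean went from 0.0984 to 1.03 CPM, and the fitted log2 fold change was 3.36 (SE 0.84, adjusted p = 0.00998). With no filter on low counts it was 3.34 (adjusted p = 0.00978), and with a filter at a mean of 1 CPM Nphs1 was not tested. Its size rests on few reads, and without non-senescent replicate 4, which held 9 of the group's reads, it was 5.27. Even the highest senescent culture, at 1.57 CPM, was below the lowest kidney, at 4.49 CPM on the separate kidney scaling. On the opposite strand of Nphs1 lie exons of Nphs1os (597 shared bases, at most 1 count per library) and of the ribosomal pseudogene Rps12-ps4 (183 shared bases), which had 44 to 108 counts in non-senescent and 18 to 36 in senescent PTEC. The strand setting of the counting is not stated, and the part of these reads in the Nphs1 counts was not tested.

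Ptpro, the apical phosphatase, did not pass the filter and was not tested. It had 11, 6, 3 and 2 counts in non-senescent and 2, 4, 8 and 4 counts in senescent PTEC, overlapping ranges close to the detection floor. The other apical gene, Podxl, was readily measured. It stood at 39.6, 45.7, 29.6 and 47.4 CPM in non-senescent and 47.1, 56.1, 42.2 and 46.8 CPM in senescent cultures. These ranges overlapped, and the difference was not called (log2 fold change 0.24, 95% interval -0.13 to 0.62, adjusted p = 0.27).

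**Figure D1:**
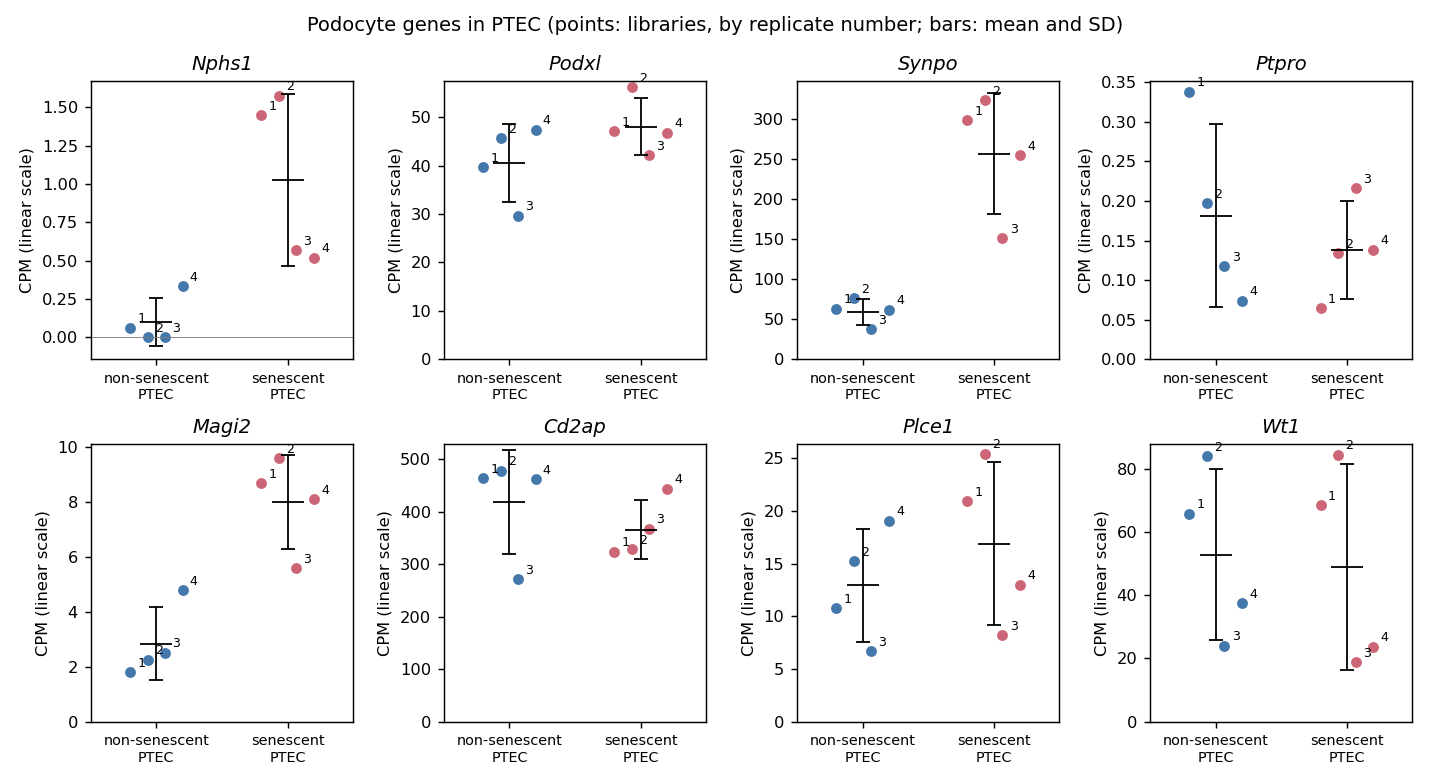
CPM of each gene (linear axis from 0 or below) in the 4 non-senescent and 4 senescent PTEC cultures, each point being 1 library with its replicate number and each bar the mean and SD. Nphs1, Synpo and Magi2 have groups that do not overlap, while Wt1 is high in replicates 1 and 2 of both groups.

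The adaptor Cd2ap was the most abundant of the 8 per length in non-senescent PTEC. Its levels were 463, 478, 271 and 462 CPM in the non-senescent and 324, 328, 368 and 444 CPM in the senescent cultures. The ranges overlapped because non-senescent replicate 3 lay far below the other 3. The difference was not called (log2 fold change -0.19, 95% interval -0.64 to 0.25, adjusted p = 0.463), and without that culture it was -0.35 and still not called. Plce1, the phospholipase, had 10.8, 15.2, 6.67 and 19.0 CPM in non-senescent and 20.9, 25.4, 8.21 and 13.0 CPM in senescent cultures. Replicates 1, 2 and 3 were higher and replicate 4 lower in the senescent cultures, and the difference was not called (log2 fold change 0.38, 95% interval -0.49 to 1.26, adjusted p = 0.457).

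Wt1 varied more between replicate numbers than between the groups. It stood at 65.8, 83.9, 24.1 and 37.4 CPM in the non-senescent and 68.4, 84.5, 18.8 and 23.7 CPM in the senescent cultures. Replicates 1 and 2 were high and replicates 3 and 4 low in both groups, and the difference was not called (log2 fold change -0.11, 95% interval -1.28 to 1.05, adjusted p = 0.88). Its sign changed with 4 of the 8 cultures left out singly. Of genes listed for other cells that make Wt1, Cldn1, a gene of parietal epithelium, had 244 to 376 CPM in non-senescent PTEC. The mesothelial gene Msln had 254 to 453 CPM there, and which cells of the cultures made these transcripts was not tested. Of the 6 mesothelial genes listed 3 reached 1 CPM there, while Lrrn4, Upk1b and Bnc1 had means of 0.0595, 0.189 and 0.436 CPM.

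Markers of other cells moved with the comparison. Summed over the 12 listed genes of mesangium, pericyte and fibroblast, the level was 185.5 to 328.5 CPM in non-senescent and 977.5 to 2169 CPM in senescent PTEC, without overlap, with Acta2 and Tagln, genes of contractile cells, having log2 fold changes of 3.52 and 2.48 and making up most of the senescent sum. Of the 11 genes of this list that were tested, 6 were up-regulated and 1, Gata3 (-1.32), was down-regulated. Over all genes tested 20.1% were called up and 19.7% down, against which the counts of this paragraph are to be read. The 7 parietal epithelial genes summed to 1864 to 2580 and 2455 to 3399 CPM, with 2 up-regulated (Pax2 and Scin) and 2 down-regulated (Cd44 and Krt19), and the 6 mesothelial genes to 272.9 to 491.5 and 55.4 to 258.2 CPM. The mesothelial sum is mostly Msln, which fell (log2 fold change -1.54), whereas Upk1b and Bnc1 rose from low levels (2.06 and 2.15). The 12 endothelial genes summed to 120.3 to 366 and 114 to 413.1 CPM and were highest in replicate 2 of both groups. No gene of these lists was at 0 in every culture of a group, although the mesothelial gene Lrrn4 had only 0 to 6 counts. The 12 listed proximal tubule genes summed to 235.2 to 888.7 CPM in non-senescent and 175 to 355.9 CPM in senescent PTEC, which overlapped. Lrp2, which is part of that sum, had means of 203 and 227 CPM. Of 7 proximal tubule genes tested 4 were down-regulated and 0 up-regulated, among them the transcription factor Hnf4a (log2 fold change -2.98), and so were the 3 tested genes of distal tubule and collecting duct and 3 of 7 leukocyte genes. The part of these cells in the rises of Synpo, Magi2 and Nphs1 was not tested.

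A property of the libraries also moved with the groups. Each library was given a length slope, the slope of log2 CPM on log2 exon length over all genes, which tells how its reads were divided between long and short genes. It was 0.577, 0.620, 0.249 and 0.621 in the non-senescent and 0.688, 0.705, 0.491 and 0.683 in the senescent cultures. Non-senescent replicate 3, the culture with the low Cd2ap, had the lowest slope. With the slope as a covariate, an alternative added after the data were seen, Synpo, Magi2 and Nphs1 were called up. Their log2 fold changes were 1.74, 1.30 and 2.76, while Plce1, not called, stood at -0.13.

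The wider podocyte lists, read without the 8 genes, showed the following. Their counts are to be read against the 20.1% of all genes called up and 19.7% called down, and nothing particular to the lists was tested. Among 12 slit diaphragm genes tested, 3 were up-regulated and 0 down-regulated, a share near that of all genes. These were Crb2, a polarity protein (log2 fold change 1.80), the kinase Fyn (1.003) and Kirrel, the nephrin-like protein Neph1 (0.93), while Kirrel3 was lowest at -0.37. Of 12 genes of the glomerular basement membrane, 5 were up-regulated and 0 down-regulated, with a list median of 0.66. The type IV collagen chains Col4a3, Col4a5 and Col4a4, which form the mature glomerular network but are also made by tubules, had log2 fold changes of 2.28, 1.54 and 1.14, and the integrin Itgb1 1.13.

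Of 19 genes of actin and signalling, 2 were up-regulated, Dlc1 (1.65) and the ephrin Efnb1 (1.03), and 2 were down-regulated, Anln (-3.09), which codes for a protein of cytokinesis, and Arhgdia (-0.57). The 4 further genes of the apical domain were divided. Slc9a3r2 (1.14) and Gne (0.57), an enzyme of sialic acid synthesis, rose, and Slc9a3r1 (-1.11) and ezrin (Ezr, -0.89) fell. Of 6 further podocyte transcription factors, Lmx1b (3.00) and Foxc1 (0.95) rose, and Dach1 (-0.97) fell. Among 11 other podocyte-enriched genes 5 rose and 0 fell, led by Pla2r1 (2.70), Rhpn1 (1.82), Thsd7a (1.45) and Cdkn1c (0.74), and Sema3g was lowest at -1.34 without being called. Levels were small for several of them, with Lmx1b at 0.562 and 4.60 CPM and Rhpn1 at 2.49 and 8.80 CPM.

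The second set of comparisons asked how the genes differed between kidneys of different ages. None of the 8 was called between any pair of ages with edgeR or DESeq2 on all kidneys and without a covariate, while the alternatives chosen after the data were seen, given further on, called some. For 24 against 3 months 0 of 8 were called, where 2.34% of the 17067 genes tested were (1.89% higher and 0.451% lower), and 0 had an unadjusted p under 0.05. For 12 against 3 months 0 of 8 were called (2.58% of all genes, 1.22% higher and 1.36% lower), again with 0 at an unadjusted p under 0.05. For 24 against 12 months 0 of 8 were called (1.33% of all genes, 0.896% higher and 0.434% lower), and 1, Cd2ap, had an unadjusted p under 0.05. The 3 comparisons share groups, and the kidneys of 3 months were counted on another gene set than the older ones, so that age and gene set cannot be told apart except between 12 and 24 months.

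Nephrin had the largest SD of the 8 within ages when the ages were pooled, although at 24 months its kidneys lay close together. Nphs1 stood at 10.9, 27.4 and 7.56 CPM in the 3-month-old kidneys, at 13.8, 4.49 and 17.5 CPM at 12 months and at 15.9, 13.4 and 14.0 CPM at 24 months. The highest and the lowest kidney of the series were thus replicate 2 at 3 months and replicate 2 at 12 months, and the 24-month-old kidneys lay between them. The mean was 15.3 ± 10.6, 11.9 ± 6.69 and 14.4 ± 1.30 CPM (SD, n = 3). The log2 fold change was -0.08 for 24 against 3 months (95% interval -1.30 to 1.14, adjusted p = 0.935), and 0.28 for 24 against 12 months (-0.943 to 1.497, adjusted p = 0.813).

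Magi2 and Cd2ap, which bind nephrin inside the cell, had the smallest SDs within ages when the ages were pooled. Magi2 had 4.04, 6.92 and 4.39 CPM at 3 months, 6.12, 4.24 and 5.36 CPM at 12 months and 7.27, 6.40 and 6.90 CPM at 24 months. All kidneys of 24 months were above all of 12 months, which 13.5% of all genes were as well (25.6% apart in either direction), and the log2 fold change was 0.39 (95% interval -0.14 to 0.91, adjusted p = 0.458). Cd2ap had 86.9, 74.2 and 74.6 CPM at 3 months, 61.8, 61.0 and 67.2 CPM at 12 months and 91.5, 74.7 and 77.6 CPM at 24 months. The 12-month-old kidneys were below all kidneys of the other ages, where 9.4% of all genes were lower without overlap at 12 than at 3 months (20.3% apart in either direction). The log2 fold change of Cd2ap was -0.31 for 12 against 3 months (SE 0.14, adjusted p = 0.308) and 0.36 for 24 against 12 months (SE 0.14, adjusted p = 0.26). For 24 against 3 months 0 of the 8 genes were apart (22% of all genes, 11.9% higher and 10.1% lower).

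**Figure D2:**
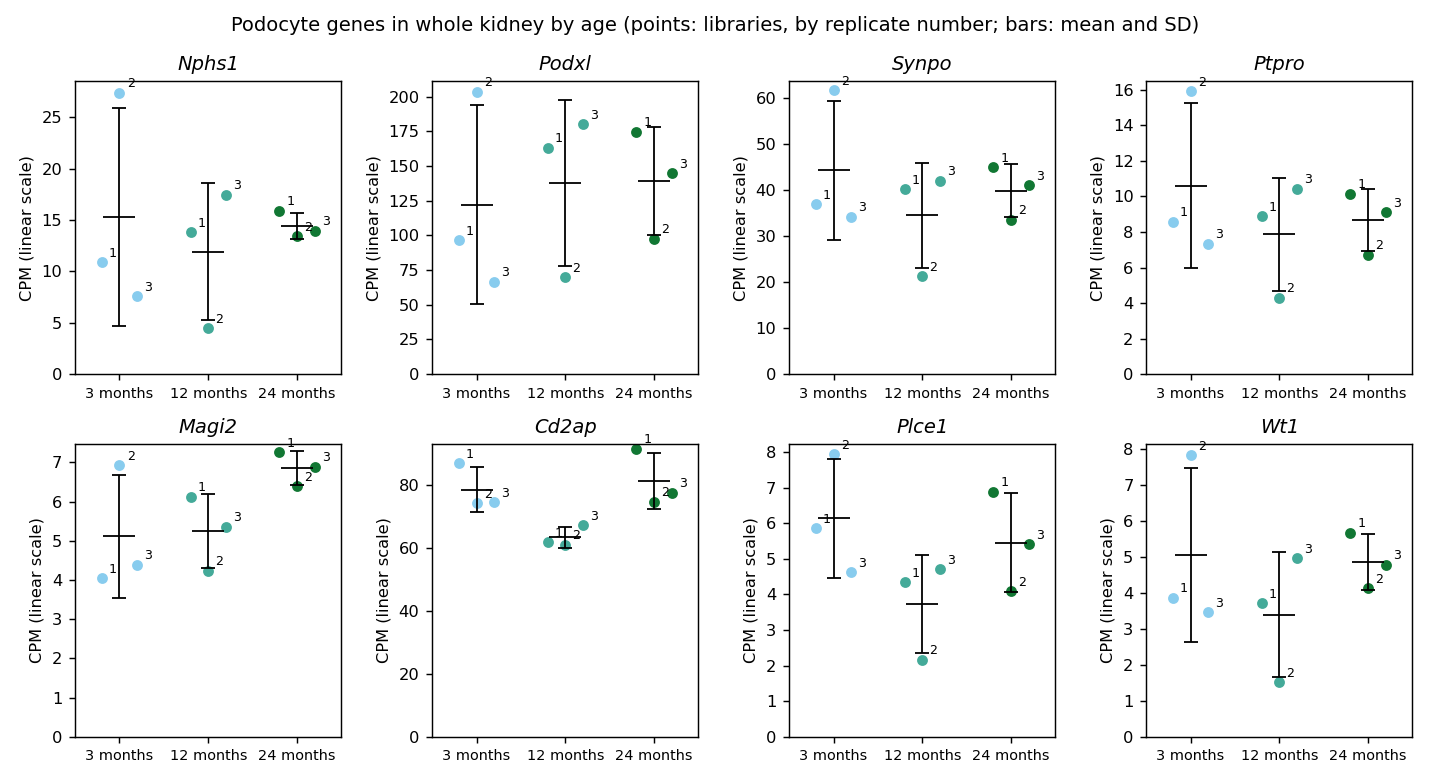
CPM of each gene (linear axis from 0) in 3 kidneys per age, each point being 1 library with its replicate number and each bar the mean and SD. Replicate 2 is high at 3 months and low at 12 months for Nphs1, Podxl, Synpo, Ptpro, Plce1 and Wt1, while for Cd2ap it is the lowest at both ages.

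Of the apical genes, Podxl was the more abundant per exon length. It stood at 96.5, 204 and 66.6 CPM at 3 months, 163, 69.7 and 180 CPM at 12 months and 175, 97.6 and 145 CPM at 24 months. All 3 ranges overlapped. Its fitted difference was 0.19 for 24 against 3 months (95% interval -0.86 to 1.24) and 0.01 for 24 against 12 months (-1.03 to 1.06). Ptpro had 8.59, 15.9 and 7.33 CPM at 3 months, 8.88, 4.29 and 10.4 CPM at 12 months and 10.2, 6.73 and 9.12 CPM at 24 months, also overlapping. Its log2 fold change was -0.29 for 24 against 3 months (adjusted p = 0.652) and -0.43 for 12 against 3 months (adjusted p = 0.674).

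Synpo and Plce1 represent the cytoskeleton and signalling. Synpo had 36.9, 61.6 and 34.1 CPM at 3 months, 40.1, 21.3 and 42.0 CPM at 12 months and 44.9, 33.5 and 41.0 CPM at 24 months, and the ages overlapped. For 24 against 3 months the log2 fold change was -0.15 (95% interval -0.84 to 0.53). Plce1 had 5.86, 7.95 and 4.63 CPM at 3 months, 4.34, 2.17 and 4.71 CPM at 12 months and 6.89, 4.09 and 5.41 CPM at 24 months. It had the largest fitted difference of the 8 between 12 and 3 months (log2 fold change -0.72, SE 0.33, adjusted p = 0.333). The same held for 24 against 12 months (0.55, SE 0.33, adjusted p = 0.464), also not called. The ranges of 12 and 24 months overlapped.

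Wt1, the transcription factor, was the third lowest of the 8 per exon length in kidney. It stood at 3.86, 7.83 and 3.46 CPM at 3 months, 3.71, 1.51 and 4.96 CPM at 12 months and 5.67, 4.13 and 4.78 CPM at 24 months. The ages overlapped. The log2 fold change was -0.06 for 24 against 3 months (95% interval -1.04 to 0.93), -0.58 for 12 against 3 months (-1.57 to 0.42) and 0.52 for 24 against 12 months (-0.47 to 1.51).

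As a group the 8 genes had a median log2 fold change of -0.07 for 24 against 3 months, -0.36 for 12 against 3 months and 0.32 for 24 against 12 months, where the medians over all genes were 0.00, 0.00 and -0.00. All 8 fitted differences were above 0 for 24 against 12 months, although that of Podxl was below 0 with upper quartile scaling and with no filter. With each kidney left out in turn, Wt1, Magi2, Cd2ap and Plce1 stayed above 0 for 24 against 12 months, but other signs rested on single kidneys. Without replicate 2 of 3 months, Nphs1, Wt1, Synpo, Ptpro and Plce1 moved to the other side of 0 for 24 against 3 months, with Nphs1 at 0.65. Without replicate 2 of 12 months, Nphs1, Podxl, Synpo and Ptpro moved to the other side of 0 for 24 against 12 months.

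**Figure D3:**
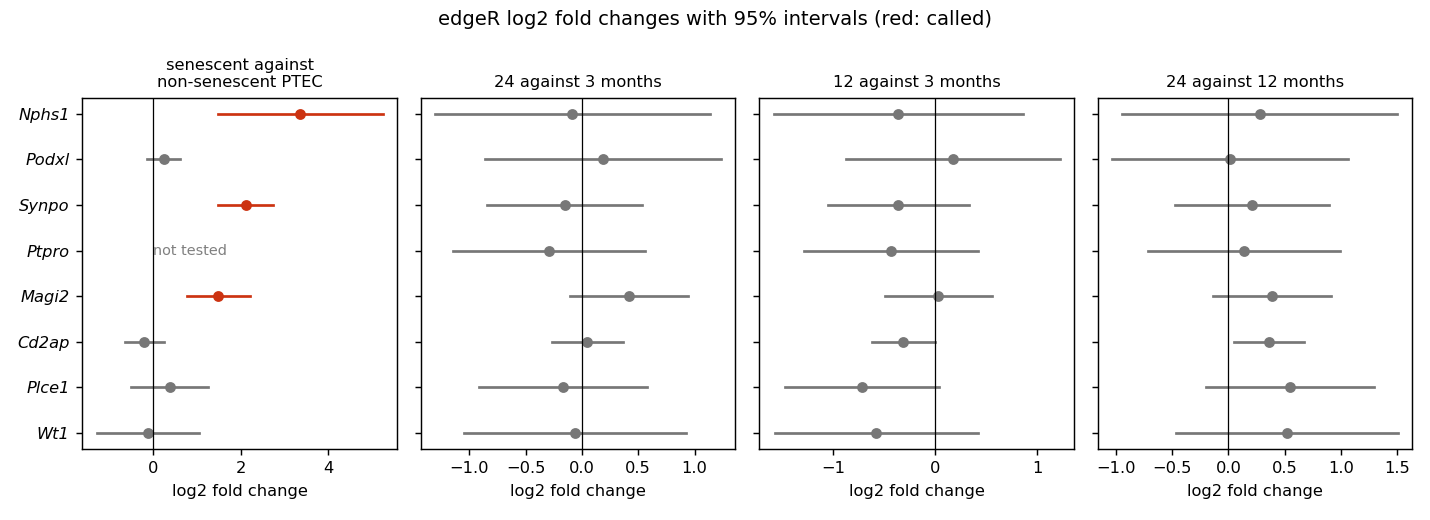
Log2 fold change (points) and 95% interval (lines) of each gene from edgeR in 4 comparisons, red where called and grey where not. Nphs1, Synpo and Magi2 are red in PTEC, Ptpro was not tested there, and no gene is red between ages.

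Within each age the genes moved together from kidney to kidney. Deviations of log2 CPM from the age mean over the 9 kidneys correlated with those of Nphs1 at r = 0.98 for Wt1, 0.968 for Synpo, 0.965 for Ptpro, 0.952 for Podxl, 0.904 for Plce1, 0.861 for Magi2 and 0.139 for Cd2ap. The size of the swings differed, with an SD within ages of 0.82 on the log2 scale for Nphs1, 0.69 for Podxl, 0.64 for Wt1, 0.55 for Ptpro, 0.47 for Plce1, 0.43 for Synpo, 0.29 for Magi2 and 0.12 for Cd2ap. The median over 13318 genes was 0.28. A larger SD than that of Nphs1 was found in 2.14% of genes and a larger one than that of Cd2ap in 88.3%.

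This movement was shared with many genes outside the podocyte. Of the 13318 genes compared, 17.3% had deviations from the age mean that correlated with those of Nphs1 at 0.9 or more over the 9 kidneys and 12% one of at most -0.9. A single axis held 70.1% of the variance of all genes within the ages, and along it lay the deviations of Podxl (r = 0.995), Ptpro (0.976), Synpo (0.968), Nphs1 (0.95), Plce1 (0.949), Wt1 (0.935), Magi2 (0.855) and Cd2ap (0.266). The loading of genes on the axis was correlated with their exon length (Spearman correlation 0.381 across 13319 genes, which are not independent). The 5 genes most like Nphs1 over the 9 kidneys in the level itself (log2 CPM, age means not removed) were Tmem19 (r = 0.98), Timm29 (0.98), Il17ra (0.978), Slc25a46 (0.974) and Lman1 (0.974).

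The length slope of the kidneys was 0.174, 0.358 and 0.0387 at 3 months, 0.265, 0.0878 and 0.275 at 12 months and 0.345, 0.193 and 0.273 at 24 months. Replicate 2 of 3 months, the kidney with the most Nphs1, had the highest slope, and replicate 3 of 3 months and replicate 2 of 12 months, which had the least, had the lowest. Genes of cytoplasmic ribosomal proteins, which are short, took 1.64% of the counts in the former kidney and 3.84% and 3.41% in the latter. The cause of this axis, and its part in the levels of the 8 genes, was not tested. With the length slope as a covariate, an alternative added after the data were seen, Ptpro was called lower at 24 than at 3 months (log2 fold change -0.58, adjusted p = 0.031), and Ptpro (-0.51) and Plce1 (-0.81) lower at 12 than at 3 months. With both kidneys farthest from their age means along the axis left out (replicate 2 of 3 months and replicate 2 of 12 months), an alternative also chosen after the data were seen and one that removes the highest and the lowest value of Nphs1 itself, Nphs1 and Magi2 were called higher at 24 months and Nphs1 and Podxl higher at 12 months than at 3 months.

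**Figure D4:**
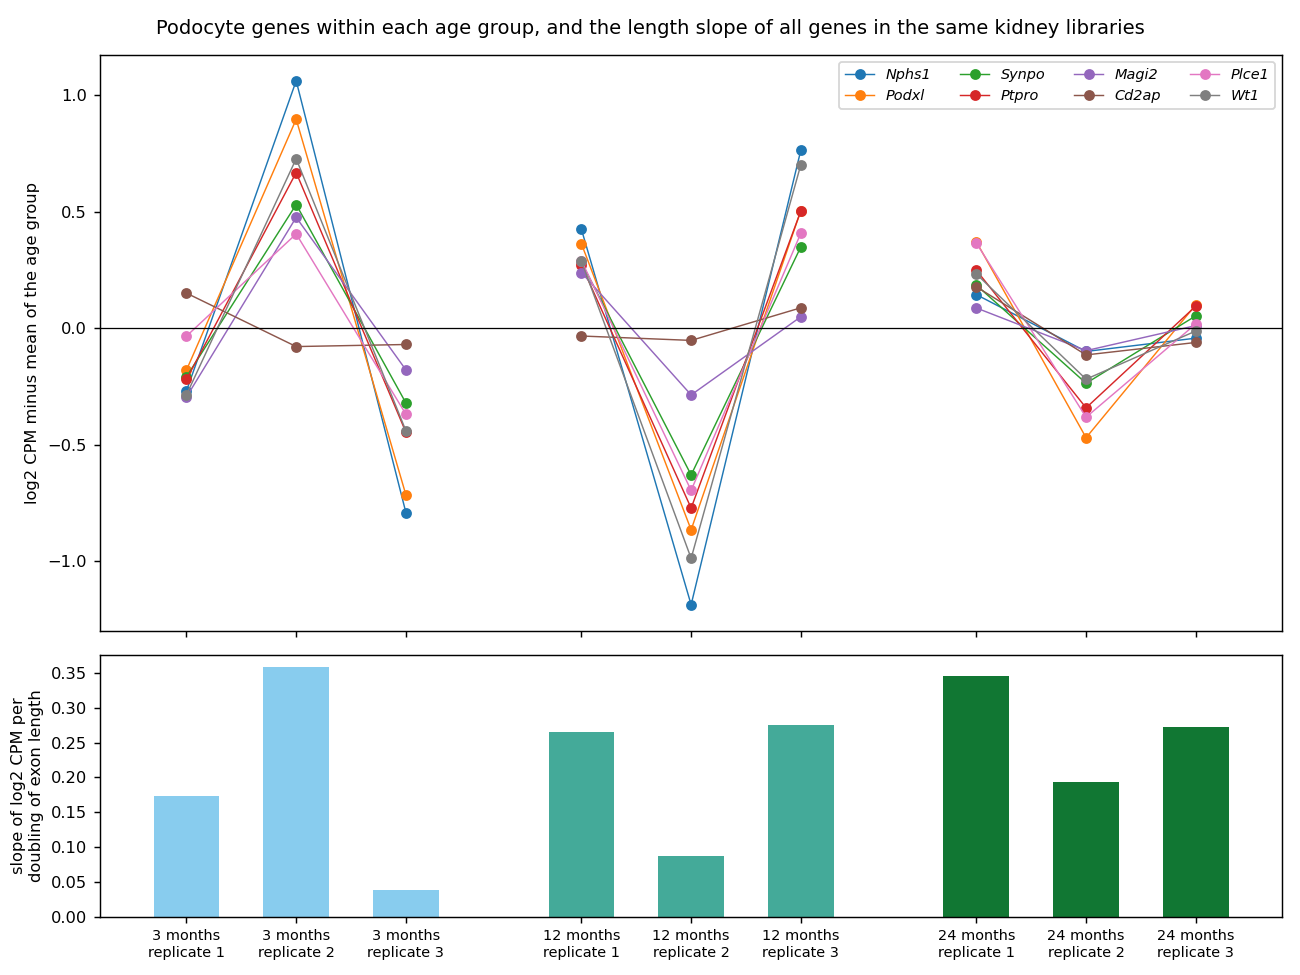
Upper plot, log2 CPM of each gene minus the mean of its age group in each of the 9 kidneys, with lines joining kidneys of 1 age. Lower plot, bars from 0 of the length slope of all genes in the same libraries. At 3 months all genes but Cd2ap are highest in replicate 2, where the slope is 0.358, and at 12 months all 8 are lowest in replicate 2, where it is 0.0878.

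Calls in the wider podocyte lists between ages are to be read against those over all genes, 2.34%, 2.58% and 1.33% for 24 against 3, 12 against 3 and 24 against 12 months. Between 24 and 3 months 1 gene of the basement membrane list, Col4a5, was down-regulated (log2 fold change -0.91, adjusted p = 0.0242), from 37.6 to 19.9 CPM, and no gene of the other 5 podocyte lists was called. Between 12 and 3 months 1 gene, nephronectin (Npnt), an integrin ligand of the basement membrane, fell from 179 to 77.4 CPM (log2 fold change -1.21, adjusted p = 0.0362). Between 24 and 12 months no gene of the 6 lists was called. Of the 8 genes, Nphs1, Wt1, Synpo, Ptpro, Cd2ap and Plce1 had their lowest mean at 12 months.

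Genes of other cell types that make some of the 8 genes were compared as well. Of 7 parietal epithelial genes 2 were down-regulated at 12 against 3 months (Krt19 and Scin), where 1.36% of all genes were, and the summed level was 157.7 to 224.6 CPM at 3, 91.3 to 134.2 CPM at 12 and 153.5 to 206.2 CPM at 24 months. At 24 against 12 months 1 of the 7 parietal genes, Krt19, was up-regulated (0.896% of all genes were), and 6 of the 7 were higher without overlap (13.5% of all genes). Of 4 mesothelial genes tested 3 were down-regulated at 12 against 3 months (Msln, Upk3b and Upk1b). The 12 endothelial genes summed to 394.6 to 519.5, 547.4 to 636.4 and 370.3 to 668.1 CPM at 3, 12 and 24 months, and 0 of them were called by edgeR in any of the 3 comparisons. The part of these cells in the levels of Wt1 and Podxl was not tested.

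The last comparison set the kidneys of 3 months against non-senescent PTEC in a fit of all 17 libraries. Whole tissue and culture, preparation and gene set differed together and cannot be told apart. Of the 8 genes 4 were higher in kidney and 2 lower, against 67.5% of the 17999 genes tested that were called, 35.5% higher and 32% lower. Among the 4, Nphs1 (0 to 9 counts) and Ptpro (2 to 11 counts) were near the floor in non-senescent PTEC. Both passed the filter on low counts only through groups where they are high, so their calls are no test of a difference. The same 6 had groups that did not overlap (62.5% of all genes, 33.4% higher and 29% lower). Nphs1 stood at 18.8 against 0.0780 CPM on this scaling and Ptpro at 13.1 against 0.145 CPM. Their fitted log2 fold changes were 7.89 (SE 0.79) and 6.42 (SE 0.46), the largest of the 8. Their denominators are a few reads, and without non-senescent replicate 4 the value of Nphs1 was 9.81.

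Podxl was higher in kidney (log2 fold change 2.22, SE 0.35) and so was Magi2 (1.48, SE 0.30). Without replicate 2 of 3 months the difference of Podxl was 1.56 and still called. Wt1 and Cd2ap went the other way. Wt1 was 6.74-fold lower in kidney (6.21 against 42.0 CPM, adjusted p = 0.00042) and Cd2ap 3.44-fold lower (96.8 against 333 CPM, adjusted p = 5.15e-07). Synpo (log2 fold change 0.21, 95% interval -0.42 to 0.84) and Plce1 (-0.44, -1.27 to 0.39) were not called.

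Levels of different genes were compared per kilobase of exon. In the kidneys the order of the means was the same at 3, 12 and 24 months, Podxl, Cd2ap, Synpo, Nphs1, Ptpro, Wt1, Magi2 and Plce1. At 3 months Podxl had 22.3, Nphs1 2.31 and Plce1 0.384 CPM per kilobase. At 24 months no neighbours in this order overlapped, whereas at 3 months every neighbouring pair except Podxl and Cd2ap did. In non-senescent PTEC the order was Cd2ap (26.4 CPM per kilobase), Wt1 (8.52), Podxl (7.39), Synpo (6.22), Plce1 (0.808), Magi2 (0.251), Ptpro (0.0270) and Nphs1 (0.0149), and neighbours overlapped among Wt1, Podxl and Synpo, between Plce1 and Magi2 and between Ptpro and Nphs1. In senescent PTEC Synpo (26.9) came to stand beside Cd2ap (23.1), with overlapping ranges, and Nphs1 (0.155) above Ptpro (0.0205).

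**Figure D5:**
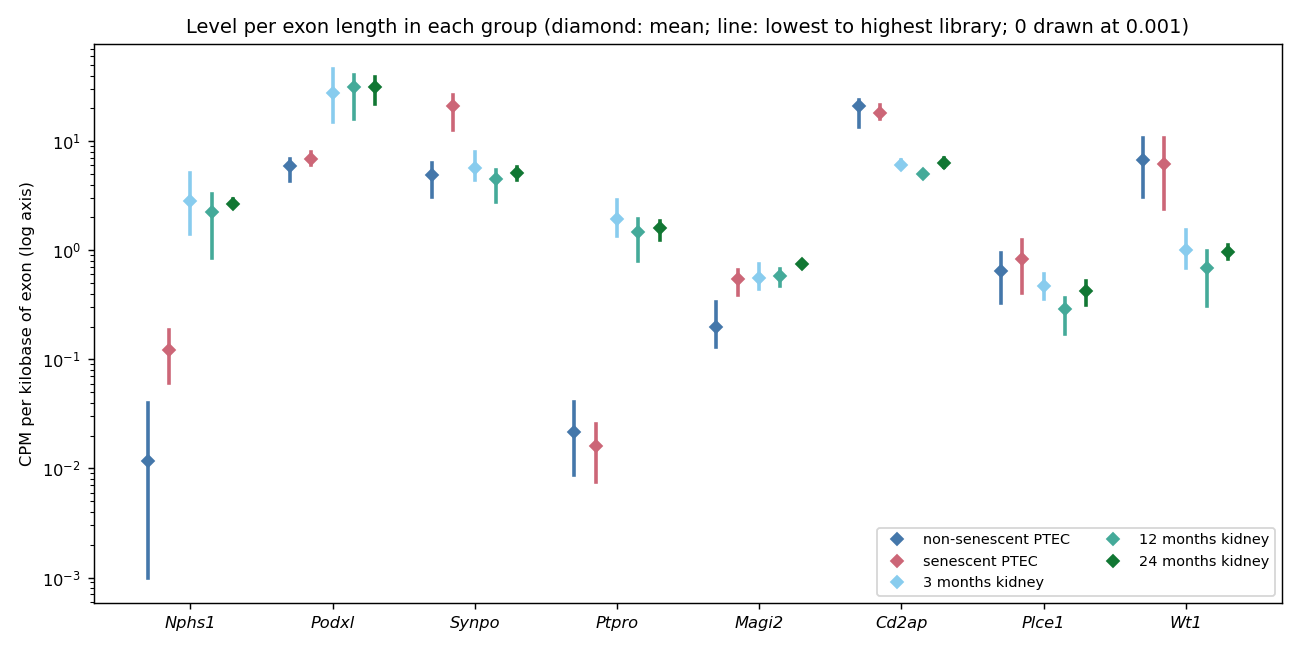
CPM per kilobase of exon (log axis) of each gene in the 5 groups after scaling of all 17 libraries together, with the mean as a diamond and a line from the lowest to the highest library. Nphs1 and Ptpro lie lower in both PTEC groups than in every kidney, while Cd2ap and Wt1 lie higher.

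All 8 genes are protein-coding. On GRCm38 Nphs1 lies at chr7:30458315-30487223, Podxl at chr6:31519488-31563981, Synpo at chr18:60593973-60660142, Ptpro at chr6:137252319-137463233, Magi2 at chr5:19227036-20704792, Cd2ap at chr17:42792951-42876665, Plce1 at chr19:38481109-38785030 and Wt1 at chr2:105126529-105173616. Their exons cover 5488 (Podxl) to 15998 (Plce1) bases. The gene models of Wt1 and Cd2ap differ in version between the tables of 12 and 24 months and the others, and the part of this in their comparisons with the 3-month-old kidneys was not tested.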

How the data were processed

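The authors prepared stranded poly(A) libraries, used nf-core/rnaseq and deposited unnormalized counts for each gene. Per the labels the build is GRCm38. The aligner and the strand setting are not given in the sources used here. The PTEC, the 3-month-old and the older kidneys were counted on 3 gene sets of 53715, 54146 and 55401 identifiers, joined by identifier without version. Names, positions and exon lengths came from a GENCODE annotation of the same build, and promoters from RefSeq (GRCm38.p6).

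Counts were scaled with TMM, filtered with filterByExpr and tested with edgeR 4.0.16 (quasi-likelihood, robust, Benjamini-Hochberg adjustment over all genes tested) in R 4.3.3, with PTEC, kidneys and all libraries in separate fits. DESeq2 1.42.0, other scalings, filters and thresholds, a replicate block and each library left out were alternatives. The script was tested on simulated data. Log2 CPM used a prior count of 2. Figures used matplotlib 3.10.9. Intervals and the floor of 3 counts cover what these libraries show, and p-values measure the spread between samples, since separate origins of the cultures are not stated.

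The labels number the replicates in each group. Deviations from group means correlated between same-numbered PTEC cultures (r from 0.186 to 0.614 over 4 pairs). Each senescent culture was most like the non-senescent one of its number. Same-numbered kidneys of 12 and 24 months correlated as well (0.172 to 0.557 over 3 numbers), and both sets exceeded 0.1 throughout, the rule set for pairing. These kidneys are of different mice and are no pairs, and replicate 3 of 24 months was most like replicate 1 of 12 months. The correlations with same-numbered 3-month-old kidneys were below 0 (-0.701 to -0.0336), so those share only a number. All values are from fits without the block, which was an alternative. The named genes are the 8 members in every comparison, the called and extreme genes of each list, at most 4 called genes per list, and the 5 genes most correlated with Nphs1. The members and lists were chosen with earlier results of these data known. One gene of the wider lists is not reported here.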

Additional observations from a re-analysis of the deposited data

Results flagged for a closer look

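Cd2ap in non-senescent PTEC was the only result in which a single library stood apart by Dixon's test, among 16 tests of the 8 genes in the 2 groups of 4 cultures. Replicate 3 had 271 CPM and the other cultures 462 to 478 CPM, so that the gap took 0.923 of the range, above the critical value for 4 samples. Chance alone marks about 1 in 20 such groups.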

How the results depend on the processing

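The 8 genes gave the same number of calls in each of the 5 comparisons under each of these settings: DESeq2, other scalings, filters and thresholds, the replicate block and each library left out in turn, except that 2 and not 3 were called in PTEC with a filter at a mean of 1 CPM, which Nphs1 did not pass. The replicate block gave 3 up-regulated genes in PTEC. Between ages the kidneys are of different mice and share only a number, and there it gave 0 calls for 24 against 12 months. It also gave 0 calls for 24 and for 12 against 3 months, and 4 higher and 2 lower genes in kidney against PTEC. Nphs1 and Ptpro had few counts in PTEC, and the effect of depth on them was not tested. With 1 library left out in turn, uncalled log2 fold changes crossed 0 for Wt1 in PTEC (-0.51 to 0.19). For 24 against 3 months this held for Nphs1 (-0.41 to 0.65), Wt1 (-0.27 to 0.42), Podxl (-0.11 to 0.78), Synpo (-0.31 to 0.17), Ptpro (-0.50 to 0.13), Cd2ap (-0.0405 to 0.13) and Plce1 (-0.37 to 0.0657). For 12 against 3 months it held for Nphs1 (-0.74 to 0.38), Podxl (-0.13 to 0.76) and Magi2 (-0.11 to 0.32). For 24 against 12 months it held for Nphs1 (-0.12 to 0.66), Podxl (-0.31 to 0.26), Synpo (-0.0475 to 0.38) and Ptpro (-0.16 to 0.40), and for the 3-month-old kidney against PTEC for Synpo (-0.19 to 0.35). Podxl for 24 against 12 months was -0.021 with upper quartile scaling and -0.0067 with no filter on low counts. Of alternatives chosen after seeing the data, the length slope as a covariate gave 1 lower gene at 24 months (Ptpro) and 2 at 12 months (Ptpro and Plce1) against 3 months, and put Podxl at -0.15 for 24 against 3 months and at -0.26 for 24 against 12 months, Ptpro at -0.0621 for 24 against 12 months and Plce1 at -0.13 in PTEC. The kidneys farthest from their age means, replicate 2 of 3 months and replicate 2 of 12 months, were picked by an axis that the genes themselves follow. Without both, 2 genes were called higher at 24 months (Nphs1 0.65, Magi2 0.70) and 2 at 12 months (Nphs1 0.77, Podxl 1.08) against 3 months. Wt1, Synpo, Ptpro and Plce1 then stood at 0.41, 0.17, 0.13 and 0.0612 for 24 against 3 months, and Wt1, Synpo and Ptpro at 0.25, 0.21 and 0.28 for 12 against 3 months. Nphs1, Podxl, Synpo and Ptpro stood at -0.12, -0.31, -0.048 and -0.16 for 24 against 12 months. The cause of these shifts was not tested.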
